A study of Mus musculus with 2 samples.

Results

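Potassium channel genes were taken as all protein-coding genes of the mm10 RefSeq annotation whose symbol starts with Kcn, and 94 of 21631 coding genes on chromosomes 1 to 19 and X fit this rule. Their bodies span 10682444 bp. The set holds 40 voltage-gated pore subunits, 13 auxiliary subunits of voltage-gated channels, 8 calcium- or sodium-activated pore subunits with 4 auxiliary subunits, 15 inward rectifiers and 14 two-pore domain channels. It was measured by the base pairs of each gene body that lay inside regions called for the histone mark H3K36me2, dimethylation of histone H3 at lysine 36.

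Potassium channels let potassium leave the cell and so keep the membrane potential negative. In T cells this outward current balances calcium entry through ORAI channels and thereby sustains calcium signalling after the T cell receptor is engaged. The main lymphocyte channels are the voltage-gated Kv1.3, encoded by Kcna3, and the calcium-activated KCa3.1, encoded by Kcnn4, whereas most other family members are known from neurons, heart, kidney or secretory cells. H3K36me2 lies over gene bodies and between genes, and NSD2 is one of the methyltransferases that place it.

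The samples were Treg cells (regulatory T cells) from the spleen of C57BL/6 mice, 1 library with the genotype Nsd2 Treg conditional knock out (KO) and 1 library from wild type mice (WT). The sources used here do not give the allele, the Cre driver, the antibody, the age of the mice or the number of animals. A mark present in fewer cells and less mark per cell cannot be told apart in such bulk libraries, and the lists hold no measure of Nsd2 itself, so they do not check the knockout. With 1 library per genotype no difference has a replicate check, so values stand side by side, no p-value is given and intervals cover counting error only. The KO library had 14789700 tags and the WT library 17158154 tags, with 39745 and 54527 regions in all. The caller's tag threshold for a window of 500 bp was 12 tags in KO and 13 in WT, or 8.11 and 7.58 tags per 10000000, so it was stricter relative to depth in KO. The deposited score starts at these thresholds, 12 and 13, but the normalised tag count of a region, counted over the region after calling, can lie below them, down to 6.09 in KO and 5.54 in WT. Of the defining Treg markers, Foxp3, Il2ra and Ikzf2 held regions in both libraries and Ctla4 in neither, and the T cell markers Cd3d, Cd3e, Cd3g and Cd4 held regions in both. Among markers of other cells, Gzma, Cd8b1 and Klf1 held none in KO and regions in WT, Cd79a, Itgam, Csf1r and Rbfox3 in both, Syt1 in KO alone, and Ms4a1, Cd8a, Ncr1, Lyz2 and Snap25 in neither. The part of other cells in the results was not tested.

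The 2 lymphocyte channels differed in how much of each was covered and in how many tags lay there. Kcnn4 (gene ID 16534, chromosome 7, 24369826 to 24385212, 15387 bp, plus strand) had 6958 bp, or 45.2% of its body, inside regions in KO and 7228 bp, or 46.97%, in WT. Kcna3 (gene ID 16491, chromosome 3, 107036162 to 107038129, 1968 bp, plus strand) had 500 bp in KO, from 1 region at the smallest size, and 0 bp in WT. In this short gene those 500 bp are 25.4% of the body, the third highest share of the family in KO. For comparison, the pooled bodies of all coding genes were covered to 1.89% in KO and 2.53% in WT.

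The promoters of the 2 genes are shown because a region lay over one and not over the other. The windows run from 250 bases before to 50 bases after a start listed in the RefSeq promoter table, build GRCm38.p6, both on the plus strand. For Kcna3 this is the start of the gene body used here, while the Kcnn4 window lies inside its body, downstream of the gene start from which distances are given. Capitals mark TGTGGT, the core letters bound by RUNX factors, or its reverse complement ACCACA. Also searched on both strands were CGGAAG (ETS), TGANTCA (AP-1) and TGGGAA (Ikaros), none of which was found in either window, and no marked match overlapped another.
Kcnn4, chr7:24370013-24370312: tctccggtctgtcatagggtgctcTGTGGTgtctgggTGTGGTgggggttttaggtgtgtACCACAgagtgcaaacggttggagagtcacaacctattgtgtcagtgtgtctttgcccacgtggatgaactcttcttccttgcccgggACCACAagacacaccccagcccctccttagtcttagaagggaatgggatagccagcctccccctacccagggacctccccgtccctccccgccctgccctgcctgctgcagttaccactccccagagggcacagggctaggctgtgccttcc
Kcna3, chr3:107035912-107036211: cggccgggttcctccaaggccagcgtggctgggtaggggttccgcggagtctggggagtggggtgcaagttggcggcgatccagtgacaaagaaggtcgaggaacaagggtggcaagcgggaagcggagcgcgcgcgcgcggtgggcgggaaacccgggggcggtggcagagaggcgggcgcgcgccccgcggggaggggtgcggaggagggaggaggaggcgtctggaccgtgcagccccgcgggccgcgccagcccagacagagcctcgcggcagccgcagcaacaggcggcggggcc
The Kcnn4 window lay wholly inside a region in KO and in WT (300 bp each), while the Kcna3 window held 0 bp in both. The Kcnn4 window had 4 RUNX matches and 6 CpG dinucleotides. TGTGGT or its complement occurred at least once in 14.7% of the 21045 promoter windows of coding genes and at least 4 times in 6 of them. The Kcna3 window had none of the 4 motifs, 37 CpG dinucleotides, a count reached by 7.37% of windows, and a GC content of 75.0%, against medians of 13 CpG dinucleotides and 56.7% over all windows. A match of letters is a description and not a bound site. Of 69 members with a promoter window in the table, 3 had a region in at least 1 window in KO (background 11.4% of 17274 genes) and 2 in WT (background 11.5%). These were Kcnn4 and Kcnab2 in both libraries, Kcnab2 in a different window in each, and Kcnk7 in KO, where 186 bp of its window were covered.

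Around the Kcnn4 start, KO had a region of 5529 bp (24369165 to 24374694) with 111.2 normalised tags (exact Poisson 95% interval 94.9 to 129.6). In WT a region of 9832 bp (24365100 to 24374932) with 181.5 normalised tags (161.9 to 202.8) covered the same start. These were the longest regions over any member in each library. Upstream, the WT region began at -4.73 kb from the gene start, while there KO had separate regions of 1493 bp and 500 bp. Both libraries also had a region at about 9 kb and one at about 11 kb into the gene, and all 3 KO regions of the body overlapped WT regions. Scaled to the part inside the body, the called regions held 132.8 normalised tags in KO (114.9 to 152.8) and 129.3 in WT (112.8 to 147.4). The intervals overlap. With 5 kb added on either side Kcnn4 had 11071 bp in 8 KO regions and 12843 bp in 5 WT regions, and with 50 kb, a size added with the values in view, 19470 bp in 18 KO regions and 24478 bp in 16 WT regions. Dividing KO lengths by the ratio of all covered lengths put the Kcnn4 body at 9363 bp in KO, against 7228 bp in WT, so which library is higher depends on the scaling. In the higher-scoring 50% of each list the long KO region, whose score of 12 is the lowest in KO, dropped out. Kcnn4 then had 918 bp in KO and 5828 bp in WT.

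The single KO region over Kcna3 had 8.11 normalised tags (4.19 to 14.2) and a score of 13, against a lowest score of 12 in KO. Within 5 kb the other region of each library lay upstream, with 627 bp in KO and 500 bp in WT, and these 2 overlapped. Within 50 kb of Kcna3 there were 5893 bp in 7 KO regions and 6375 bp in 7 WT regions. Kcna3 heads a row of Kcna genes on chromosome 3, followed by Kcna2 after 52754 bp and Kcna10 after a further 68138 bp. Kcna2, which encodes the neuronal channel Kv1.2, had 1500 bp in KO and 3729 bp in WT, and Kcna10 had 0 bp in KO and 1000 bp in WT. By these values KO was above WT at Kcna3, and WT was above KO at Kcna2 and Kcna10. The 2 WT regions of Kcna10 were of 500 bp with scores of 13 and 14, against a lowest score of 13 in WT. Their normalised tags were 7.58 and 8.16, against thresholds of 7.58 in WT and, for the Kcna3 region with its 8.11 tags, 8.11 in KO. Kcna3 and Kcna10 thus rest on regions of 500 bp near the calling limit. A score near the lowest does not by itself mark a weak region, as the long Kcnn4 region in KO had the lowest.

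**Figure D1:**
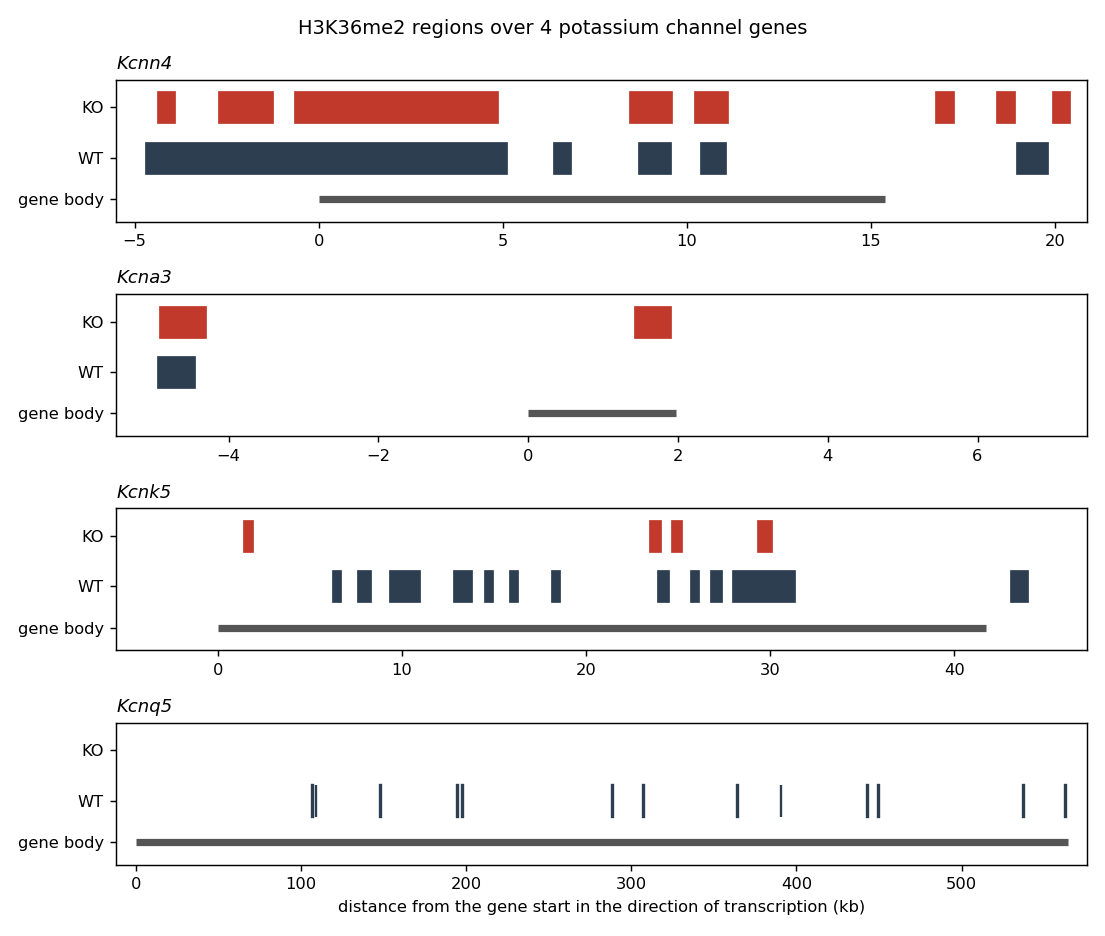
H3K36me2 regions in KO (upper track) and WT (lower track) over Kcnn4, Kcna3, Kcnk5 and Kcnq5, drawn against the distance in kb from the gene start in the direction of transcription, with 5 kb on either side and the gene body as a bar. The outlines widen the bars of Kcnq5 slightly. Both libraries cover the start of Kcnn4, Kcna3 has 1 KO region in its body, Kcnk5 has 4 KO and 11 WT regions in its body and 1 WT region beyond its end, and Kcnq5 has 0 KO and 13 WT regions.

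Over the whole family, 51 of 94 genes held a region in KO (54.3%, exact binomial 95% interval 43.7 to 64.6), against a background of 40.6% of all coding genes. In WT 43 of 94 held one (45.7%, 35.4 to 56.3), against a background of 44.4%. At the rates of their length classes, 44.9 members in KO and 48.6 in WT would hold one. Both libraries marked 38 genes (background 32.3%), 13 held a region in KO alone (background 8.31%), 5 in WT alone (background 12.1%), and 38 had none in either (background 47.3%). There were 147 KO regions and 187 WT regions in these bodies, or 78.6 KO regions per 100 WT regions (62.9 to 98.1), where all coding genes had 74.8 (73.6 to 76.0). Covered length was 100209 bp in KO and 128484 bp in WT. This is 0.94% and 1.20% of the pooled bodies, below the 1.89% and 2.53% of all coding genes. Had each member carried the covered share of all coding genes of its length class, the family would have had 131131 bp in KO and 188540 bp in WT. Holding WT regions of 500 bp to the KO tag threshold, applied to the score as 13.9 tags in WT, left 127 WT regions and 98716 bp, so KO then had 115.7 regions and 101.5 bp per 100 in WT. The same setting gave 105.7 and 92.2 for all coding genes.

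The genes marked in KO alone include Kcna1, Kcna3, Kcna6, Kcnab3, Kcnb2, Kcng1, Kcng2, Kcnj4, Kcnj10, Kcnk16 and Kcns3. Most of these had a single region that put 500 bp in the body, while Kcna1 had 97 bp from 1 region across its edge, Kcna6 had 636 bp from 1 region, and Kcnj4 had 3 regions. The 5 marked in WT alone were Kcna10, Kcnj1, Kcnj11, Kcnj14 and Kcnq5. The 38 with no region in either body include the A-type channel genes Kcna4, Kcnd1 and Kcnd2, the cardiac Kcna5, the fast-spiking Kcnc2, and Kcnc4. They also include the small subunits Kcne2, Kcne3 and Kcne4, and the G protein-gated rectifiers Kcnj3 and Kcnj5. Kcnk1, Kcnk4 and Kcnk10 of the two-pore channels are among them too.

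Most regions over potassium channel genes were at the smallest size. Regions of 500 bp made up 59.2% of the 147 KO regions (50.8 to 67.2) and 57.2% of the 187 WT regions (49.8 to 64.4), while over all coding genes they made up 53.2% and 51.5%. The median normalised tag count of member regions was 8.79 in KO and 8.45 in WT. Regions of at least 2000 bp numbered 4 in each library. In KO they lay over Kcnn4, Kcnip1, Kcnip2 and Kcnh2, and in WT over Kcnn4, Kcnk5, Kcna2 and Kcnip1. Of the member regions, 60 KO regions (40.8%, 32.8 to 49.2) overlapped a WT region by at least 1 bp and 60 WT regions (32.1%, 25.5 to 39.3) overlapped a KO region. Over all coding genes these shares were 41.4% and 30.6%, inside the intervals of the members, which treat regions of the same gene as independent.

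**Figure D2:**
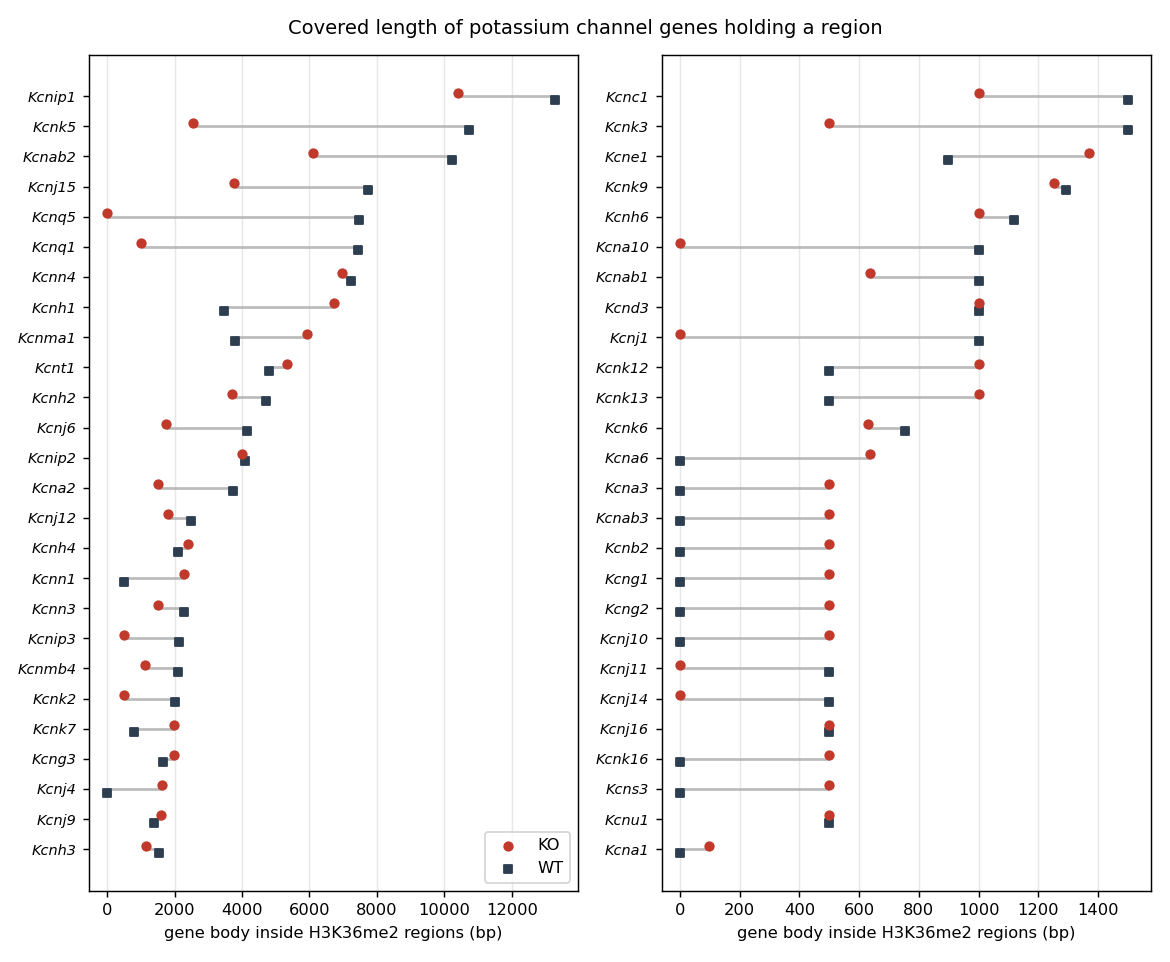
Base pairs of gene body inside H3K36me2 regions in KO (circles) and WT (squares) for potassium channel genes that held a region in either library (a few are left out), ordered by the larger value, with a shorter axis in the right panel. Each point is 1 library, with no error bar. Kcnip1, Kcnk5 and Kcnab2 lead in WT, and Kcnip1, Kcnn4 and Kcnh1 lead in KO.

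The rule for a difference was a size of at least 1000 bp, the length of 2 calling windows, and not a test. By it 14 members were lower in KO (background 13.1% of all coding genes) and 7 were higher (background 4.92%). At the rates of their length classes, 17.3 and 5.4 members would be lower and higher. Of the rest, including genes with no region, 73 differed by less. The 3 largest drops, at Kcnk5, Kcnq5 and Kcnq1, added up to -22094 bp. The family's net difference, in which rises offset drops, was -28275 bp. Without these 3 genes, chosen for their values, the family had 94.0 KO bp per 100 WT bp. Taking out the largest drops can only raise this figure.

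Kcnk5 encodes TASK-2, an acid-sensitive two-pore channel that carries background potassium current in kidney cells and has been described in T cells. It lies on chromosome 14, from 20140057 to 20181782 (41726 bp, minus strand). The gene held 2554 bp in 4 regions in KO (6.12% of the body) and 10740 bp in 11 regions in WT (25.7%). The row counts have exact Poisson intervals of 1.09 to 10.2 in KO and 5.49 to 19.7 in WT, which overlap. The normalised tags inside those regions were 44.3 in KO (34.2 to 56.4) and 164.7 in WT (146.1 to 185.1). Tags outside called regions are not in the lists, so these values follow the calls and do not measure the whole gene. Their intervals cover neither the calling step nor the choice of Kcnk5 as a large drop. The 11 WT regions ran from 6.20 to 31.4 kb after the gene start, the longest 3422 bp. Of the 4 KO regions, 1 lay at 1.40 to 1.90 kb and the other 3 between 23.4 and 30.1 kb, and 2 of the 4 overlapped a WT region. The difference of -8186 bp ranked 128 among the drops of 21631 coding genes. It kept its direction under all 9 alternative settings, between -12189 and -4249 bp.

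Kcnq5 encodes a subunit of the neuronal M-current, a slow potassium current that limits repetitive firing. The body spans 564252 bp of chromosome 1 (21398399 to 21962650, minus strand). It held no KO region and 13 WT regions with 7458 bp, or 1.32% of the body (Poisson interval of the WT count 6.92 to 22.2). The WT regions were small, 8 of 13 at 500 bp and the longest 811 bp, with 7.58 to 12.5 normalised tags each. They were spread from 106.4 to 563.3 kb after the gene start. The lists hold only what passed the threshold, so 0 KO regions is not a level of 0. Over all 557 coding genes of at least 300 kb, KO had 61.4 regions per 100 WT regions. Of these genes, 36.6% were at least 1000 bp lower in KO and 8.44% at least 1000 bp higher. At that length Kcnq5 and Kcnq1 were lower by the same rule together with Kcnip1, and Kcnh1 and Kcnma1 were higher, 3 and 2 of 14 members. Of 1264 coding genes with at least 5000 bp covered in WT, 5 held no KO region. Among the 161 of the 1264 that are 300 kb or longer, Kcnq5 is the only one. In the other direction, 2 coding genes with at least 5000 bp covered in KO held no WT region. At the common tag threshold 6458 bp remained in WT, and without regions under 1 kb Kcnq5 held none in either library.

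Kcnq1 encodes the pore of the slow delayed rectifier of heart muscle and lies in an imprinted domain. Its body of 320174 bp on chromosome 7 (143106877 to 143427050) held 1000 bp in 2 KO regions and 7450 bp in 14 WT regions. Of the WT regions 11 were of 500 bp, and 1 of the 2 KO regions overlapped a WT region. At the common tag threshold Kcnq1 had 1000 bp in KO and 4450 bp in WT. Together with Kcnq5 it made the Kcnq genes the stem with the largest gap, 2639 bp in 5 regions in KO and 15854 bp in 28 regions in WT over 5 genes. Kcnq3, a partner subunit of the M-current, held none in either library.

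Among the other voltage-gated pore subunits, differences went both ways. Kcnh1, which encodes the ether-a-go-go channel, had 6719 bp in 11 KO regions and 3456 bp in 5 WT regions, and 1 region in each overlapped the other library. Kcnh2, which encodes the cardiac hERG channel and is also known from leukaemia cells, had 3710 bp in 3 KO regions and 4727 bp in 8 WT regions. All 3 KO regions of Kcnh2 overlapped WT regions, and its direction turned under 3 of 9 alternatives. Kcnh4 had 2393 bp in KO and 2097 bp in WT, Kcng3 1971 bp and 1657 bp, Kcnh3 1165 bp and 1535 bp, Kcnh6 1000 bp and 1118 bp, Kcnc1 1000 bp and 1500 bp, and Kcnd3 1000 bp in each, all KO before WT and all closer than 1000 bp. In all, 21 of the 40 pore subunits held a region in KO and 14 in WT, with 9 in KO alone and 2 in WT alone, where all coding genes had 40.6%, 44.4%, 8.31% and 12.1%. Their covered share was 0.66% in KO and 0.82% in WT.

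The auxiliary subunits of voltage-gated channels were led by 2 genes in both libraries. Kcnip1, which encodes KChIP1, a calcium-binding partner of Kv4 channels, had the most covered base pairs of any member, 10401 bp in 11 KO regions and 13298 bp in 18 WT regions. Much of this lay in a cluster from 40 to 65 kb after the gene start, a stretch picked from its values, with 6767 bp in 5 KO regions and 6354 bp in 5 WT regions. In that cluster 4 of the 5 regions in each library overlapped the other. Under 5 of 8 alternative settings the KO length of Kcnip1 was above its WT length. The nearest coding gene beyond the start of Kcnip1 is Lcp2, which encodes the T cell adaptor SLP-76, at 53580 bp. Kcnmb1, a smooth muscle BK subunit gene inside the Kcnip1 body, held no region.

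Kcnab2, which encodes a beta subunit that binds Kv1 channels and has been described in T cells, had 6099 bp in 9 KO regions and 10225 bp in 13 WT regions of its 86806 bp. Only 2 regions of each library overlapped the other, and the difference kept its direction under all 8 settings that could be computed for it, between -6064 and -2018 bp. Its body overlaps that of Nphp4. Kcnip2, the cardiac KChIP2, had nearly equal cover, with 3991 bp (16.6%) in KO and 4101 bp (17.0%) in WT. Kcnip3, whose product DREAM binds both channels and DNA, had 500 bp in 1 KO region and 2135 bp in 4 WT regions. Kcne1, a small subunit of the Kcnq1 channel, had 1370 bp in KO and 898 bp in WT. Kcnrg, a suppressor of Kv channel assembly, held none in either library.

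Calcium- and sodium-activated pore subunits were the 1 subfamily with more cover in KO, at 22504 bp (1.23%) in 30 KO regions and 19064 bp (1.04%) in 25 WT regions. The interval of that ratio of regions, 68.2 to 212.8 KO per 100 WT, spans 100. Besides Kcnn4, Kcnma1, which encodes the large-conductance BK channel of muscle and neurons, had 5915 bp in 10 KO regions and 3782 bp in 7 WT regions. In the higher-scoring 50% of regions Kcnma1 had 657 bp in KO and 2282 bp in WT, so its direction turned. Kcnn1, a small-conductance channel of neurons, had 2287 bp in 5 KO regions and 487 bp in 1 WT region. Kcnt1, a sodium-activated neuronal channel, had 5344 bp in KO and 4787 bp in WT, in 8 regions each. Kcnn3 had 1500 bp in KO and 2280 bp in WT, and Kcnu1 500 bp in each. The 4 BK auxiliary subunit genes held 1134 bp in KO and 2097 bp in WT, all in Kcnmb4.

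Inward rectifiers and two-pore channels had the largest covered shares of the subfamilies and, among the groups with over 4 genes, the lowest KO cover relative to WT, at 63.2 and 54.8 KO bp per 100 WT bp. The inward rectifiers were covered to 1.51% in KO and 2.39% in WT, and the two-pore channels to 1.39% and 2.54%. Kcnj15, a kidney channel gene, had 3750 bp in 7 KO regions and 7725 bp in 12 WT regions, 6 of them shared in each library, and it stayed lower in KO under all 9 alternative settings. Its neighbour Kcnj6, a G protein-gated channel of neurons, had 1754 bp in KO and 4150 bp in WT, and both lie on chromosome 16, 259862 bp apart. Kcnj9 had 1607 bp (18.2%) in KO and 1392 bp (15.8%) in WT, and Kcnj12 1803 bp in KO and 2485 bp in WT. Kcnj4, chosen after its values were seen, had 1629 bp in 3 KO regions and none in WT, and Kcnj1, chosen in the same way, 0 bp in KO and 1000 bp in WT. Kcnj2, the strong inward rectifier Kir2.1, and Kcnj8, an ATP-sensitive channel pore, held none in either library. Kcnj8 had 500 bp in WT and none in KO once 5 kb was added on either side.

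Kcnk7, a two-pore gene of 3514 bp with no known current of its own, had the largest covered share in KO, 1981 bp (56.4%), against 806 bp (22.9%) in WT. Its body overlaps that of Ehbp1l1. Kcnk2 had 500 bp in KO and 2000 bp in WT, and Kcnk3 500 bp and 1500 bp, and both turned to 500 bp in KO and 0 bp in WT at the common tag threshold. Kcnk6, Kcnk9, Kcnk12 and Kcnk13 differed by at most 500 bp. Kcnk18, which encodes TRESK, a channel of sensory neurons that has been described in T cells, held none in either library. Of the 94 members, 9 had at least 10% of the body covered in KO (background 10.1%) and 11 in WT (background 11.5%), with 6 in both. These were Kcnn4, Kcnk7, Kcnj9, Kcnip2, Kcnh4 and Kcnh2.

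**Figure D3:**
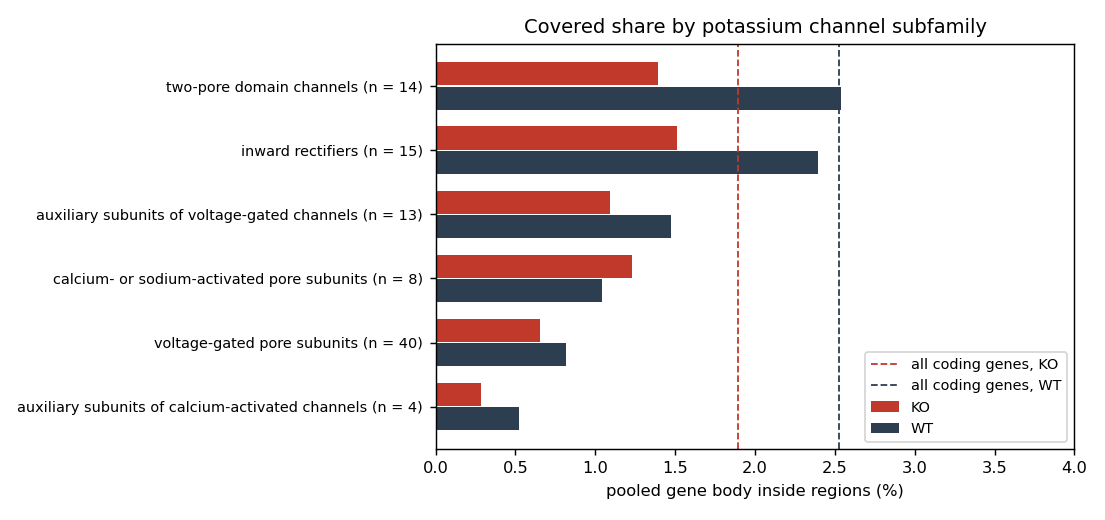
Percentage of pooled gene body inside H3K36me2 regions for the 6 subfamilies, with KO above WT in each pair and dashed lines at the values of all coding genes. Each bar is 1 library, with no error bar. Two-pore channels and inward rectifiers are covered most in both libraries, and all 6 KO bars lie below the 1.89% of all coding genes in KO.

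The 45 members listed from textbook knowledge as neuronal and not lymphocyte genes also held regions, about as often as the family as a whole. This list was not checked against expression in Treg cells, and it includes Kcnip2, named above as cardiac. In KO 24 held a region (53.3%, exact binomial interval 37.9 to 68.3), against a background of 40.6% of all coding genes. In WT 19 held one (42.2%, 27.7 to 57.8), against a background of 44.4%. Their pooled bodies were covered to 0.70% in KO and 0.77% in WT. The 47 members left without that list, Kcna3 and Kcnn4 had 1.29% and 2.07%. Those 47 still include members described in T cells, such as Kcnk5 and Kcnab2. Covered lengths were 53669 bp in KO and 58813 bp in WT for the neuronal members, and 39082 bp and 62443 bp for the others. Regions per 100 in WT were 89.7 (65.2 to 123.1) and 67.7 (48.6 to 93.7), and these intervals overlap.

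Gene length split the neuronal members, in a division at 100 kb chosen after the values were seen. Of 19 neuronal genes of at least 100 kb, 7 held a region in KO and 7 in WT, with 0.32% and 0.49% of their bodies covered, where all 2427 coding genes of that length had 1.17% and 1.81%. Kcnip4, the longest member, Kcnd2, Kcnh7 and Kcnb2 are among these, and of the 4 only Kcnb2 held a region, 1 of 500 bp in KO. Of 26 shorter neuronal genes, 17 held a region in KO (65.4%, 44.3 to 82.8) and 12 in WT (46.2%, 26.6 to 66.6), against 37.0% and 40.7% of the 19204 coding genes under 100 kb. Their bodies were covered to 4.35% in KO and 3.50% in WT, where all coding genes under 100 kb had 2.94% and 3.57%. For the family as a whole, 10 of 23 members of at least 100 kb held a region in each library (43.5%, 23.2 to 65.5), against 68.9% of coding genes that long in KO and 73.8% in WT. In the class of 30 to under 100 kb, 24 of 27 members held one in KO (88.9%, 70.8 to 97.6, background of that class 54.8%) and 18 of 27 in WT (66.7%, class background 61.96%).

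**Figure D4:**
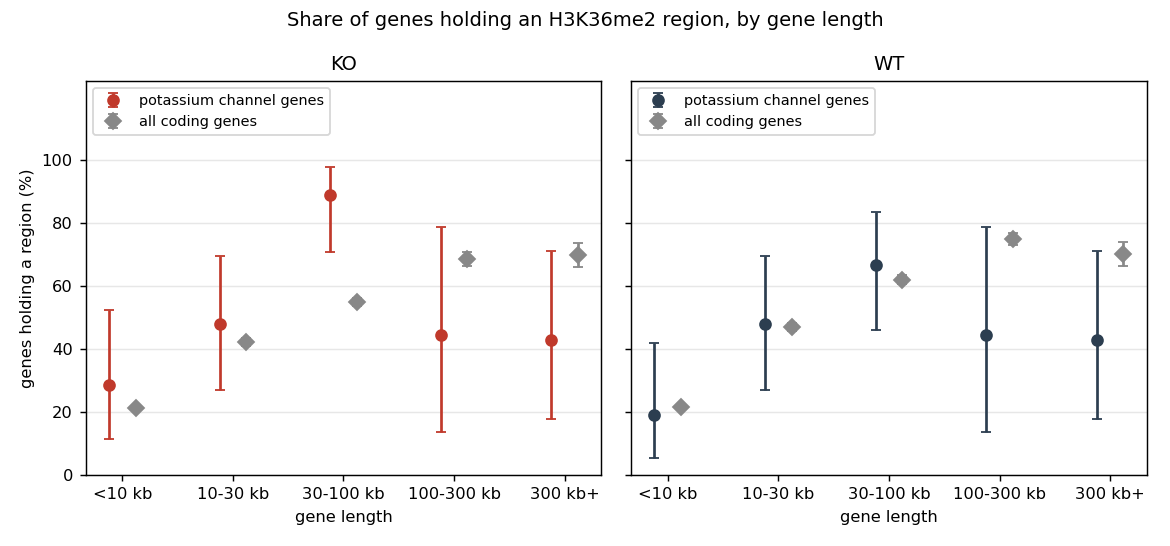
Percentage of genes holding an H3K36me2 region by gene length, for potassium channel genes (circles) and all coding genes (diamonds), in KO (left) and WT (right), with exact binomial 95% intervals that treat genes as independent. The share of potassium channel genes is highest at 30 to under 100 kb, 88.9% in KO and 66.7% in WT, while all coding genes have their highest shares above 100 kb.

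Genes that work with these channels in T cell calcium signalling were covered more than the channel genes. Of 20 genes of calcium entry, release and export and of volume-regulated anion flux, 19 held a region in both libraries (background 32.3%), with 4.66% of the pooled bodies covered in KO and 6.21% in WT. By the 1000 bp rule 11 of 20 were lower and 2 higher in KO (backgrounds 13.1% and 4.92%). These genes are long, with a median of 56967.5 bp against 17329 bp for all coding genes. Of 5071 coding genes of 30 to under 100 kb, 2361 held a region in both libraries, 21.5% were lower and 6.41% higher. At 100 to under 300 kb 40.5% were lower and 6.20% higher. Orai1, the pore of store-operated calcium entry, had 1997 bp (13.0%) in KO and 3317 bp (21.6%) in WT. Lrrc8a, the essential subunit of the volume-regulated anion channel, had 3667 bp (14.1%) in KO and 7010 bp (26.9%) in WT. Stim1, the calcium sensor of the endoplasmic reticulum, named like the next 3 genes after its values were seen, had 7427 bp in KO and 7843 bp in WT. The IP3 receptor genes split, with Itpr3 at 11444 bp in KO and 6975 bp in WT, Itpr1 at 18930 bp and 25132 bp, and Itpr2 at 11132 bp and 17437 bp. Of 9 genes whose products regulate KCa3.1, 3 held a region in KO and 7 in WT, with 1 lower and 1 higher by the rule, against backgrounds of 40.6%, 44.4%, 13.1% and 4.92%. Calm3, a calmodulin gene, had 1801 bp (20.8%) in KO and 681 bp (7.87%) in WT, and Phpt1, the histidine phosphatase that inhibits the channel, 957 bp (45.9%) and 500 bp (24.0%).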

How the data were processed

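H3K36me2 region lists of 1 KO and 1 WT Treg library were analysed. Per the labels' protocols, libraries were made with kits for in situ ChIP and indexing, and the tools in the submitters' processing notes are Bowtie2, deepTools, HOMER, Picard and Trim Galore, with mm10 as the build. Per the file headers, HOMER findPeaks called each library alone in histone style, without a control, stitching peaks of 500 bp (Poisson threshold 0.001, and 0.0001 against the local 10000 bp). The deposited signal is the tag count of a region scaled by HOMER to 10000000 tags, per the file headers, and the deposited score starts at each list's tag threshold and was used to rank regions and, in the common-threshold setting, to filter WT regions of 500 bp. The deposited clonal fold ratio was not used. Scaling to 10000000 tags removes any genome-wide change in the mark from the tag counts. Covered lengths and region counts are not scaled, but they depend on each library's total, which limits which weak regions pass.

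Region lengths are end minus start and coordinates are as deposited. Gene bodies came from RefSeq GRCm38.p6 without exons, and overlapping genes share regions. Covered base pairs, regions per gene and exact Poisson, Clopper-Pearson and conditional binomial 95% intervals were computed with numpy 2.4.6, scipy 1.17.1 and pandas 2.3.3 under Python 3.11.15, and the calling rule was tested on simulated data. Members and lists were chosen with earlier results of these data known. Named were Kcna3 and Kcnn4, members with regions in both libraries, the 10 most covered per library, the 3 largest differences each way, 8 members reported in lymphocytes, and flux genes covered to at least 20%. Other members are named to account for the family, and 4 flux genes after their values were seen. A few genes, counted in the totals, are not reported here by name. The alternatives, 9 in number, changed the regions, the window, the overlap, the scaling or the members. Tags are PCR reads without molecular identifiers.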

Additional observations from a re-analysis of the deposited data

How the results depend on the processing

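Compared were 9 alternative settings and 2 added after the data were seen, the family without Kcnk5, Kcnq5 and Kcnq1 and the 50 kb window. KO cover per 100 WT bp was 78.0 as reported. It turned to 101.5 with WT regions of 500 bp at the KO tag threshold, applied to the score, and to 104.95 after dividing KO lengths by the ratio of covered lengths, and KO regions per 100 WT regions turned to 115.7 at the common threshold. The other settings kept both below 100. Members holding a region, 51 in KO and 43 in WT as reported, numbered 32 in KO and 32 in WT in the higher-scoring 50%. They numbered 31 in KO and 30 in WT in the 50% with the most tags. Without regions under 1 kb they numbered 12 in KO and 12 in WT. In these 3 settings the gap between the libraries was 0 or 1 gene. With 5 kb on either side 53 held one in KO and 50 in WT, and at the common threshold 51 in KO and 37 in WT. Members lower in KO, 14 as reported, were 9 in the 50% with the most tags, 8 without regions under 1 kb and 7 at the common threshold, and members higher, 7 as reported, were 11 after dividing by the covered-length ratio. The cause was not tested. Dividing by the ratio gives no region or gene count.

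Past 1000 bp were 17 of the members named by the rule given above. Of these, 4 (Kcna2, Kcnab2, Kcnj15 and Kcnk5) stayed past 1000 bp in the same direction in each alternative that could be computed. In at least 1 alternative 6 turned. Kcna10, Kcnj1 and Kcnj4, named in addition, are not among the 17, and their regions were all under 1 kb. KO minus WT turned for Kcnh2 to 47 bp in the most-tagged 50%, 2148 bp without regions under 1 kb and 265.4 bp under length division. Kcnip1 turned to 1779 bp in the higher-scoring 50%, 603 bp in the most-tagged 50%, 569 bp without regions under 1 kb, 103 bp at the common threshold and 698.3 bp under length division. Kcnk2 turned to 500 bp in the higher-scoring 50% and at the common threshold, and Kcnk3 to 500 bp in these and in the most-tagged 50%. Kcnma1 turned to -1625 bp in the higher-scoring 50% and Kcnn1 to -200 bp in the most-tagged 50%. No paired analysis was possible because each genotype has 1 library, so no library could be left out either. Regions near 12 or 13 tags are at the limit of what this depth can call.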

Other observations

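Other ion channel families gave a scale for the potassium channel genes. The 26 calcium channel genes (Cacn) had 67088 bp in KO and 98742 bp in WT, or 67.9 KO bp per 100 WT bp, where potassium channel genes had 78.0. Pooled covered shares were 1.08% in KO and 1.21% in WT for 14 sodium channel genes (Scn), and 1.003% and 1.22% for 24 transient receptor potential genes. For 9 chloride channel genes (Clcn) they were 0.92% in KO and 1.65% in WT, and for 10 cyclic nucleotide gated and pacemaker genes 0.79% and 1.35%. The potassium channel genes, with 0.94% in KO and 1.20% in WT, lay among these values in KO and just below them in WT. Members holding a region in KO alone numbered 13 of 94 potassium channel genes, against 0 of 26 calcium, 1 of 14 sodium and 2 of 24 transient receptor potential genes, and 8.31% of all coding genes. These differences were not tested.

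The annotation also holds 4 noncoding RNA genes with Kcn symbols, which the rule leaves out. Kcnq1ot1, the imprinted antisense RNA inside Kcnq1 (chromosome 7, 143213111 to 143296547), held 0 bp in KO and 1500 bp in 3 regions in WT. The other 3, Kcnd3os, Kcnmb4os1 and Kcnmb4os2, held none in either library.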
